A study of Mus musculus with 3 samples.

Results

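Genes that glucocorticoid hormones are known to act on were followed in mouse lung: Nr3c1, Fkbp5, Klf9, Zbtb16, Tsc22d3, Dusp1, Errfi1, Sgk1 and Cdkn1a. They were taken by symbol, and all 9 of them had a value above 0 in each library, out of 23183 genes listed. Lung homogenates of BALB/c females gave RNA for 3 libraries, 1 per group, with 5 mice assigned to each group. The labels do not say whether a library held RNA of 1 mouse or of several. One label gives an age of 10 weeks and another 5 to 6 weeks.

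Mice of the control group gave the first library, and for them no vehicle or sham treatment is named. The PM10 library came from mice that received particulate matter (ERMCZ-120, a certified fine-dust reference material) into the nose, suspended in 20 µL of saline, on 4 occasions within 2 weeks. Doses of 100 and 200 µg are described, and the one that was sequenced is not named. The OVA+PM10 library came from mice that received both the particles and a course of sensitisation to ovalbumin (OVA). These mice were injected intraperitoneally with 20 µg of OVA in aluminium hydroxide on day 14 and, by the design text, on day 0 or, by the protocol, on day 1. They were then given 30 µL of OVA at 1 mg/mL into the nose on days 21, 22 and 23. Lungs were taken 2 days after the last challenge. A library of mice given OVA alone was not analysed here, so effects of OVA and of particles in OVA+PM10 cannot be told apart. With 1 library per group there was no replicate, no p-value was computed, and each difference below is one between libraries and not between conditions.

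Glucocorticoids, chiefly corticosterone in mice, enter cells and bind the glucocorticoid receptor, which waits in the cytosol in a complex with HSP90 and immunophilin co-chaperones. The bound receptor moves to the nucleus, binds palindromic DNA elements and raises transcription of genes that restrain kinase and NF-kB signalling, while it also dampens many cytokine genes. Corticosterone rises with stress and with the daily rhythm, and inhaled synthetic glucocorticoids are a standard treatment of allergic asthma. The labels do not give the hour at which lungs were taken.

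Promoter windows of 300 bases (250 before and 50 after an annotated start, RefSeq, GRCm38.p6) were matched for 7 of the 9 genes, with 16 starts in all. Zbtb16 and Nr3c1 were not matched. The windows were searched on both strands for the letters of the glucocorticoid response element, GAACA and TGTTC parted by any 3 bases, of a single arm of it, AGAACA, of the cAMP response element, TGACGTCA, of the E-box, CACGTG, and of a TATA box, TATAAA. The full element can contain single arms, which are then counted under both names. The 4 windows below are shown because they hold the full glucocorticoid element (Sgk1), because they hold the cAMP response element in a gene that was low in OVA+PM10 (Dusp1 and Errfi1), or because the gene differed most between libraries (Klf9). Capitals mark the glucocorticoid and cAMP response elements.
Sgk1, chr10:21993640-21993939, plus strand: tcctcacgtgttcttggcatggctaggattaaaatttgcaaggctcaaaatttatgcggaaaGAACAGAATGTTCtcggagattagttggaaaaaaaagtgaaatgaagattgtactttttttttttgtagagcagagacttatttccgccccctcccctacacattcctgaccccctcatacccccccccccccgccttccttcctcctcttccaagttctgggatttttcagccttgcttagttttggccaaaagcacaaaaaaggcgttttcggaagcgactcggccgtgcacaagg
Dusp1, chr17:26508423-26508722, minus strand: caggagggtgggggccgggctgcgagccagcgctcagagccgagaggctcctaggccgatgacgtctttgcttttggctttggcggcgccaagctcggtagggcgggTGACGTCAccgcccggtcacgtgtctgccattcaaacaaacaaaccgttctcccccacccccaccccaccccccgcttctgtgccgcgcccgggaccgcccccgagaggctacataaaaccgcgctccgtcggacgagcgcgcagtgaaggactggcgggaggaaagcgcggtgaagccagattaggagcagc
Errfi1, chr4:150854820-150855119, plus strand: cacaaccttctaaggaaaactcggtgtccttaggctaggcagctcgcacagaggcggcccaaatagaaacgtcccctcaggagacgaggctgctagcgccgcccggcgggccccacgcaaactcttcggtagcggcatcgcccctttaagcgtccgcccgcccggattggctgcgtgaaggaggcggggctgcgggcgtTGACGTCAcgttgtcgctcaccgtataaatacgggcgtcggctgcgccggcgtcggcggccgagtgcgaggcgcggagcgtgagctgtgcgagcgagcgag
Klf9, chr19:23140976-23141275, plus strand: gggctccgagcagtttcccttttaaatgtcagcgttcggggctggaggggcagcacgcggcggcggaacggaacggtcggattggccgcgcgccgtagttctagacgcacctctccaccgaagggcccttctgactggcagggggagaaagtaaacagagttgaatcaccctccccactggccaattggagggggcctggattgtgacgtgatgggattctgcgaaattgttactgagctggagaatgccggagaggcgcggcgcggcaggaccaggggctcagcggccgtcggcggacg

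The full glucocorticoid element was found in 1 of the 16 windows, that of an Sgk1 start that lies inside the span of the gene. Its first base was 188 bases upstream of the start. Of all 32851 promoter windows of this length, 19 (0.0578%) held these letters. The cAMP response element was found 143 bases upstream of the Dusp1 start and 51 bases upstream of the downstream Errfi1 start, and in 1.79% of all windows. The single arm occurred in 19.0% of all windows, and among the 16 it lay in 3 Sgk1 windows and 1 Tsc22d3 window. E-box letters, present in 7.15% of all windows, lay in those of Dusp1, Fkbp5 and that same Sgk1 start. TATAAA, present in 13.6%, lay in those of Errfi1 and of 2 further Sgk1 starts. The windows of Klf9 and Cdkn1a held none of the 5 motifs. Such matches describe letters in these windows and not binding.

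**Figure D1:**
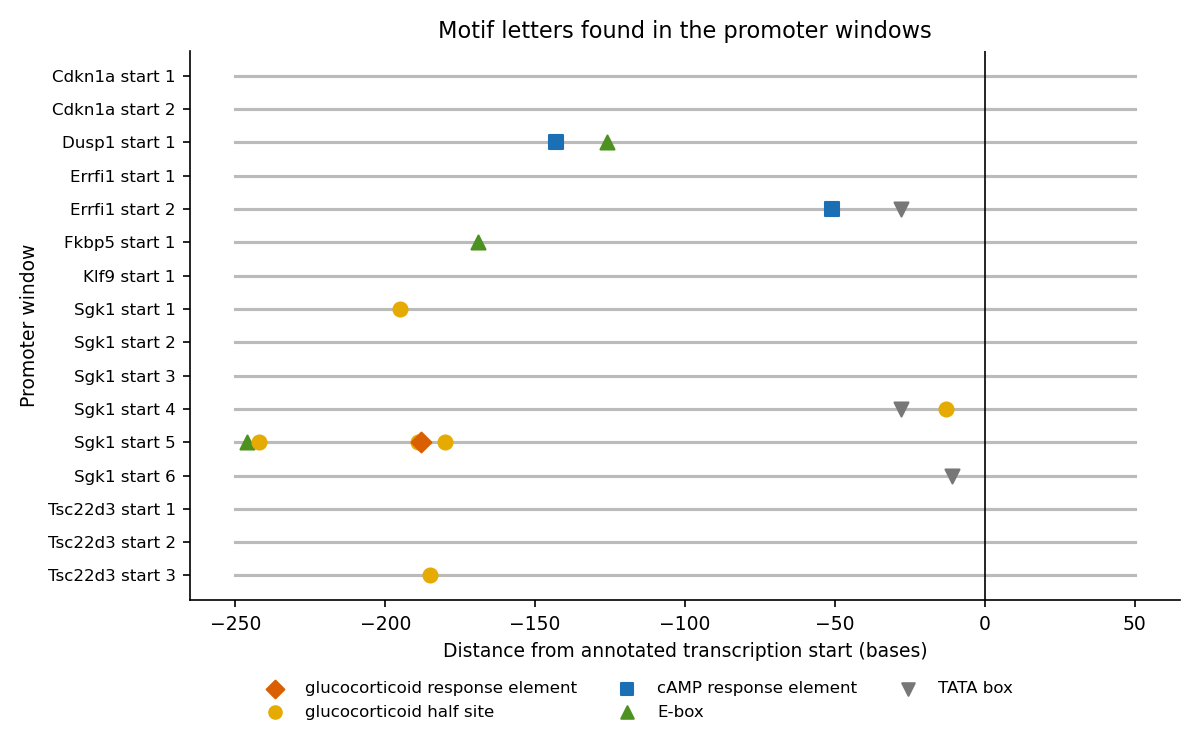
Positions of the 5 motifs in the 16 promoter windows of 7 genes, with the distance from the annotated start in bases on the x axis and 1 line per start. The full glucocorticoid element appears once, in an Sgk1 window 188 bases upstream, and cAMP response elements appear in Dusp1 and Errfi1.

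Values are in FPKM, fragments or reads per kilobase of transcript, scaled to the mapped reads, so that levels of different genes can be compared within a library. Differences are log2 ratios of FPKM + 1, which understates the change of low genes, and a gene is called higher or lower when it differed at least 2-fold on that scale and reached 1 FPKM in one of the libraries compared. By the low values, 1 read in a gene of 1 kb was worth about 0.0485 FPKM in control, 0.0757 in PM10 and 0.0646 in OVA+PM10, so control was the deepest library. The least covered value, Zbtb16 in PM10, rested on about 109 reads. The median gene lay near 0 in each comparison (0.02, 0.00 and -0.03). Scaling all libraries to the same sum would move that median to -1.02 in PM10 and -0.57 in OVA+PM10, each against control, and to 0.48 between the exposed libraries, with 249 genes higher and 7226 lower, 617 and 3459, and 3211 and 321 in these comparisons in place of 1869 and 1907, 1381 and 1204, and 1604 and 1220. Every direction given here takes the unscaled median gene as its zero. All genes of lung epithelium used as a check were above 1 FPKM in each library, among them Sftpc, surfactant protein C, at 22645 FPKM in control, 56646 in PM10 and 24439 in OVA+PM10. Coordinates are from GENCODE M21 (GRCm38, also called mm10), and all 9 genes are annotated as protein-coding.

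The control library stood apart by genes of other tissues. The 10 squamous epithelium markers summed to 6216 FPKM in control, 1.79 in PM10 and 2.01 in OVA+PM10, and 6 and 3 of them were listed at 0 in the latter libraries, the keratin Krt13 among them in PM10 (2574 FPKM in control and 0.107 in OVA+PM10). The 12 skeletal muscle markers summed to 4192, 27.9 and 40.1 FPKM in the same order, and the 10 adipocyte markers to 444, 49.7 and 180 FPKM. Lung cell types differed too. The 10 endothelial markers summed to 1642, 2196 and 802 FPKM. The sum of the 10 fibroblast markers (2544, 4906 and 1568 FPKM) was mostly Inmt (1771, 4513 and 827 FPKM). Of these markers, 2 were higher and 4 lower in PM10 than in control (median -0.79), beside 13.6% and 13.9% of all genes. In OVA+PM10, 2 were higher and 5 lower (median -0.81), beside 9.95% and 8.68%. The sum of the 10 alveolar macrophage markers (598, 1480 and 2899 FPKM) held 2106 FPKM of Chil3 in OVA+PM10, and the list medians were 0.80 and 0.35. The sum of the 4 genes of the hemoglobin list (3587, 23410 and 7650 FPKM) was highest in PM10 and was mostly Hba-a1 (3338, 20709 and 6994 FPKM). Of the 4, 2 were higher and 1 lower in PM10 than in control, beside the same 13.6% and 13.9% of all genes. The lower one, Hbb-bs, had 5.51 FPKM in control and is listed at 0 in both others, and Alas2 stayed within 2-fold. The part of these genes in the PM10 ratios below was not tested. In such bulk tissue, fewer cells of a type and less RNA per cell cannot be told apart.

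**Figure D2:**
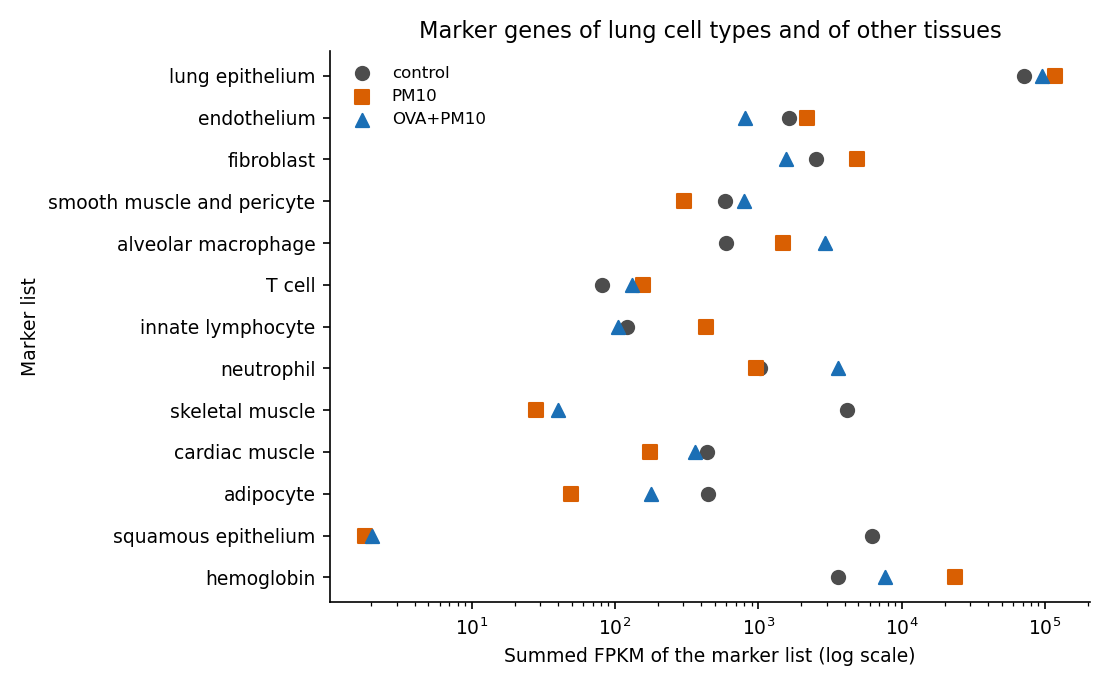
Summed FPKM of each marker list (log x axis) in the 3 libraries, 1 point per library. Squamous epithelium and skeletal muscle markers are high in control and low in both others, and the adipocyte sum runs from 444 FPKM in control to 180 and 49.7 FPKM in the OVA+PM10 and PM10 libraries.

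Against the control library, Klf9 and Zbtb16 were at least 2-fold lower in both exposed libraries, whereas Fkbp5, Dusp1, Sgk1 and Cdkn1a stayed within 2-fold in both. Tsc22d3, Errfi1 and the receptor gene Nr3c1 were at least 2-fold lower in OVA+PM10 but not in PM10. In the PM10 library, 2 of the 9 genes (22.2%) were at least 2-fold lower and 0 higher, against 13.9% of all 13693 genes tested that were lower and 13.6% higher. One gene more or less moves that share by 11.1 percentage points, so the count is near that of all genes. The median log2 ratio of the 9 genes was -0.61, against 0.02 for all genes. In the OVA+PM10 library, 5 of the 9 genes (55.6%) were lower and 0 higher, against 8.68% of 13877 genes lower and 9.95% higher, with a median of -1.07. Between the exposed libraries, 2 genes (22.2%) were lower and 1 (11.1%) was higher in OVA+PM10, against 9.0% and 11.8% of 13556 genes, with a median of -0.23. With the trend of ratios over transcript length removed (described under Nr3c1), 0 genes were higher and 2 lower in PM10 (7.79% and 11.3% of all genes), 0 higher and 5 lower in OVA+PM10 (7.58% and 8.35%), and 1 higher and 1 lower in OVA+PM10 against PM10 (12% and 6.69%). Both exposed libraries were compared with the same control library, so these counts are not independent of each other.

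**Figure D3:**
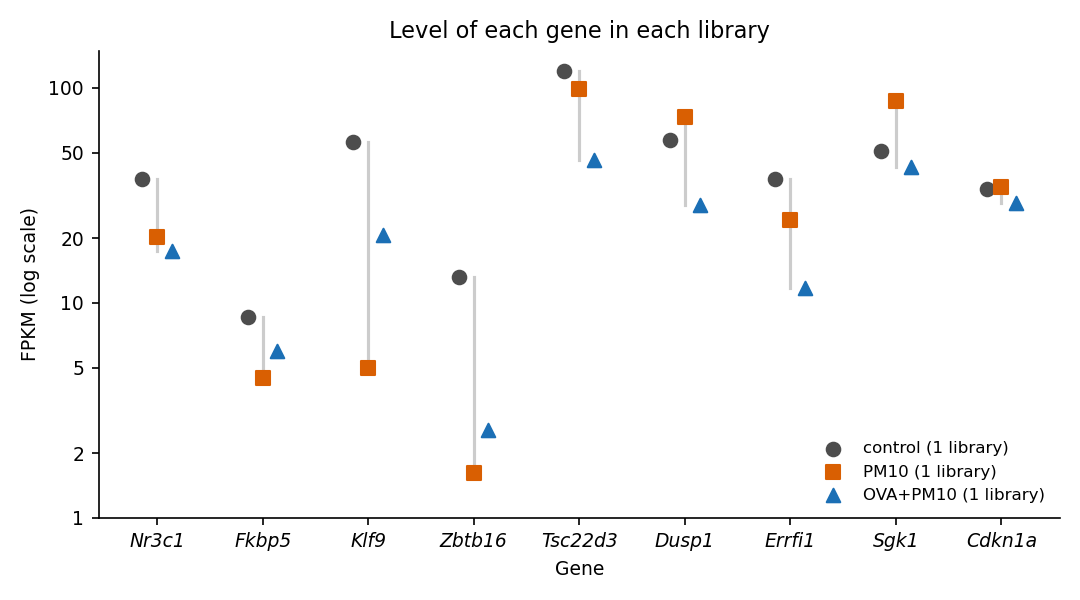
Level of each of the 9 genes in FPKM (log y axis) in control, PM10 and OVA+PM10, 1 point per library, with a grey line over their range. Klf9 spans from 55.7 to 4.96 FPKM and Zbtb16 from 13.1 to 1.62 FPKM, while the 3 values of Cdkn1a lie between 29.2 and 34.5 FPKM.

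Nr3c1 encodes the glucocorticoid receptor itself (ENSMUSG00000024431.15, chromosome 18, 39410545 to 39519421, minus strand). It had 37.7 FPKM in control, 20.2 in PM10 and 17.5 in OVA+PM10. Both exposed libraries were below the control library and close to each other. The log2 ratio to control was -0.87 for PM10 and -1.07 for OVA+PM10, and -0.20 between the exposed libraries. Its longest transcript, of 6436 bases, is the longest of the 9 genes, and ratios to control fell with transcript length in these libraries. Of 10 classes of genes by length, the shortest (121 to 1276 bases) had a median ratio of 1.08 and the longest (6612 bases or more) one of -0.77 for PM10 against control. With this trend removed, Nr3c1 stood at -0.31 and -0.76 and was past 2-fold in neither comparison.

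Fkbp5 encodes a co-chaperone that lowers the affinity of the receptor for its hormone and is itself induced by it (ENSMUSG00000024222.17, chromosome 17, 28399094 to 28517527, minus strand). It had 8.56 FPKM in control, 4.49 in PM10 and 5.94 in OVA+PM10. The control library was highest, and none of the 3 ratios passed 2-fold (-0.80, -0.46 and 0.34). Fkbp5 was the lowest of the 9 genes in control, and Zbtb16 the lowest in both exposed libraries.

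Klf9, a Krüppel-like transcription factor induced by glucocorticoids and thyroid hormone (ENSMUSG00000033863.2, chromosome 19, 23141226 to 23168134, plus strand), differed most. It had 55.7 FPKM in control, 4.96 in PM10 and 20.8 in OVA+PM10. Its FPKM was thus 11.2 times as high in control as in PM10, and the OVA+PM10 library lay between them. The log2 ratio was -3.25 for PM10 against control (-3.00 with the length trend removed) and lay in the lowest 1.3% of genes tested; it was -1.38 for OVA+PM10 against control. Between the exposed libraries it was 1.87, so that Klf9 was the 1 gene of the 9 past 2-fold higher in OVA+PM10. Among the 9 genes by level, Klf9 held rank 3 in control, 7 in PM10 and 5 in OVA+PM10.

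Zbtb16 encodes PLZF, a zinc finger transcription factor that steroid hormones induce in many tissues and that innate-like T cells also use (ENSMUSG00000066687.5, chromosome 9, 48654297 to 48836222, minus strand). It had 13.1 FPKM in control, 1.62 in PM10 and 2.56 in OVA+PM10. The exposed libraries were both low, and the control library stood apart from them. The log2 ratios to control were -2.43 and -1.99, or -2.06 and -1.73 with the length trend removed, and the ratio between the exposed libraries was 0.44, with an approximate counting error of 0.34 on either side (95%, counting error only). The 10 innate lymphocyte markers summed to 122 FPKM in control, 434 in PM10 and 105 in OVA+PM10, of which Gzma made up 82.8, 374 and 70.5 FPKM. Against control, 4 of the 10 were higher and 1 lower in PM10 (median 0.63), beside 13.6% and 13.9% of all genes. In OVA+PM10, 0 were higher and 1 lower of 9 tested (median 0.00), beside 9.95% and 8.68%. The lower marker was Rora in both, with 9.73, 3.85 and 4.23 FPKM. With the length trend removed, its ratios to control were -0.29 and -0.66. The part of these cells in the Zbtb16 ratios was not tested.

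Squamous epithelium, skeletal muscle and adipocyte markers were also highest in control, and their part in the ratios of Klf9 and Zbtb16 to control was not tested. Between the exposed libraries, where squamous markers summed to no more than 2.01 FPKM and skeletal muscle markers to no more than 40.1 FPKM, Klf9 differed 4.19-fold in FPKM. The adipocyte sum was also higher in OVA+PM10 there (180 against 49.7 FPKM). Of the 10 fibroblast markers, 5 were higher in OVA+PM10 than in PM10, such as Dcn (91.8 against 8.40 FPKM). Another 2 were lower, such as Inmt (list median 0.81), beside 11.8% of all genes higher and 9.0% lower. The part of these cells in that difference was not tested either.

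Tsc22d3 encodes GILZ, a leucine zipper protein that binds NF-kB and AP-1 and carries part of the anti-inflammatory action of glucocorticoids (ENSMUSG00000031431.13, chromosome X, 140539528 to 140600659, minus strand). It was the most abundant of the 9 genes in each library, at 120 FPKM in control, 98.7 in PM10 and 46.1 in OVA+PM10. The control and PM10 libraries were similar in level, and the OVA+PM10 library was the low one. The log2 ratio to control was -0.28 in PM10 and -1.36 in OVA+PM10, and that between the exposed libraries was -1.08. With the length trend removed the last became -0.99, just short of 2-fold.

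Dusp1 encodes a phosphatase that switches off the stress kinases p38 and JNK (ENSMUSG00000024190.7, chromosome 17, 26505590 to 26562128, minus strand). It had 57.4 FPKM in control, 73.0 in PM10 and 28.6 in OVA+PM10. The OVA+PM10 library was again the low one, and the PM10 library was the high one. The ratio of -1.32 between the exposed libraries passed 2-fold, while that of OVA+PM10 against control lay just short of it at -0.98 and reached -1.14 with the length trend removed. The annotated span of Dusp1 overlaps the start of Ergic1 on the other strand (21.4, 17.1 and 30.1 FPKM in control, PM10 and OVA+PM10), and whether the counting separated the strands is not known here.

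Errfi1 encodes MIG6, an inhibitor that binds the epidermal growth factor receptor (EGFR) and is induced by glucocorticoids and by EGFR signalling (ENSMUSG00000028967.10, chromosome 4, 150853919 to 150868892, plus strand). It had 37.6 FPKM in control, 24.2 in PM10 and 11.7 in OVA+PM10. The control library was the highest and OVA+PM10 the lowest. The log2 ratio was -0.61 in PM10 and -1.60 in OVA+PM10 relative to control, and -0.99, just short of 2-fold, between the exposed libraries.

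The endothelial marker sum was also lowest in OVA+PM10, beside Tsc22d3, Dusp1 and Errfi1, and so were the fibroblast and innate lymphocyte sums given above. Of the 10, 6 were at least 2-fold lower and 0 higher against control (median -1.10), and 5 were lower and 0 higher against PM10 (median -1.08). Tek, the angiopoietin receptor, had 110 FPKM in control, 65.1 in PM10 and 25.5 in OVA+PM10, and Calcrl, the adrenomedullin receptor chain, had 151, 142 and 37.1 FPKM. Kdr, a receptor of vascular endothelial growth factor, was the exception, lowest in PM10 (75.9, 21.2 and 26.5 FPKM). The part of any of these cell types in the ratios of Tsc22d3, Dusp1 and Errfi1 was not tested.

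Sgk1 encodes a kinase that glucocorticoids and aldosterone induce and that keeps the epithelial sodium channel at the cell surface (ENSMUSG00000019970.15, chromosome 10, 21882184 to 21999903, plus strand). It had 51.1 FPKM in control, 86.5 in PM10 and 42.9 in OVA+PM10. The PM10 library was the high one, and the others were close to each other. The log2 ratio of 0.75 for PM10 against control was the highest of the 9 genes but did not pass 2-fold, and scaling to the same sum gave -0.48, with the median gene at -1.02. The ratio between the exposed libraries fell just short of the threshold, although the FPKM values alone differed 2.02-fold. The Sgk1 window printed above holds the full glucocorticoid element.

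Cdkn1a encodes p21, an inhibitor of cyclin-dependent kinases that glucocorticoids and p53 induce (ENSMUSG00000023067.14, chromosome 17, 29090976 to 29100727, plus strand). It had 33.9 FPKM in control, 34.5 in PM10 and 29.2 in OVA+PM10, the narrowest range of the 9 genes as a ratio. Its log2 ratios were 0.02, -0.21 and -0.23, and the first became -0.37 with the length trend removed.

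**Figure D4:**
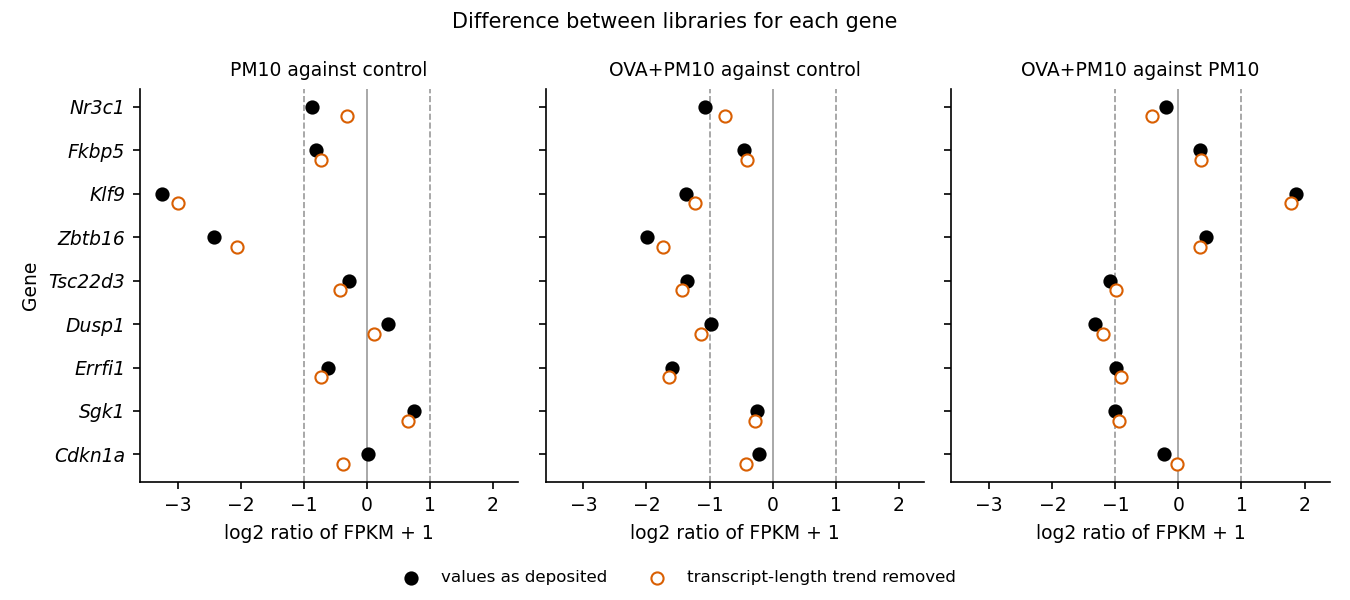
Log2 ratio of FPKM + 1 of each of the 9 genes in the 3 comparisons, filled for values as deposited and open with the trend over transcript length removed, with dashed lines at 2-fold. In OVA+PM10 against control all 9 filled points lie below 0, from -1.99 (Zbtb16) to -0.21 (Cdkn1a), whereas in PM10 against control they run from -3.25 (Klf9) to 0.75 (Sgk1).

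The other parts of the receptor pathway did not share one direction. Of 17 genes of the receptor complex, its co-regulators, hormone-converting enzymes and steroid exporters, 2 were higher and 4 lower in PM10 (median -0.35), and 0 higher and 1 lower of the 16 tested in OVA+PM10 (median -0.16). Beside these stand 13.6% of all genes higher and 13.9% lower in PM10, and 9.95% and 8.68% in OVA+PM10. Correction for length gave 2 higher and 2 lower in PM10, and 0 higher and 2 lower in OVA+PM10. Nr3c2, the mineralocorticoid receptor, had 3.69 FPKM in control, 0.35 in PM10 and 3.14 in OVA+PM10. Nrip1, a nuclear receptor co-repressor, had 7.35, 0.251 and 5.31 FPKM in the same order, so both were low in PM10. Abcb1a, a drug and steroid exporter, had 8.85, 3.42 and 2.04 FPKM and was the lower gene in OVA+PM10. Hsd11b1, the enzyme that regenerates active corticosterone, had 77.2, 126 and 41.0 FPKM, a log2 ratio of -1.60 between the exposed libraries.

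Of 34 tested genes out of 35 others that glucocorticoids are known to induce, 2 were higher and 7 lower in PM10 (median -0.38), and 1 was higher and 11 lower in OVA+PM10 (median -0.51). The respective shares of all genes that were lower are the 13.9% and 8.68% given above. Pdk4, a kinase that limits glucose oxidation, had 9.87 FPKM in control, 2.26 in PM10 and 0.921 in OVA+PM10. Lcn2, an acute phase protein that inflammation also induces, went the other way, at 106, 808 and 679 FPKM. Nfkbia, the NF-kB inhibitor, which NF-kB itself induces, had 14.1, 81.5 and 23.3 FPKM and was thus high in PM10. Cd163, a hemoglobin scavenger receptor of macrophages, had 4.47 FPKM in control and 3.88 FPKM in OVA+PM10 but is listed at 0 in PM10.

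Among cytokine, adhesion and enzyme genes that glucocorticoids are known to repress, 9 of 18 tested were higher and 3 lower in PM10 (median 0.99), and 7 of 16 were higher and 0 lower in OVA+PM10 (median 0.73), against 13.6% and 9.95% of all genes that were higher. Some were tested only through the exposed library: Il6, Tnf, Cxcl2, Ccl4 and Ccl20 in PM10, and Cxcl5, Ccl4 and Ccl20 in OVA+PM10. Below 1 FPKM in control, these could not be called lower, and all but Tnf were counted as higher. Scaling to the same sum gave medians of -0.10 and 0.26, with those of all genes at -1.02 and -0.57. The medians of this list include the genes tested only through the exposed library, whose ratios as deposited could only lie above 0. They therefore do not place the list against the median gene. Without the length trend, 6 were higher and 2 lower in PM10 (median 0.34), and 4 were higher and 0 lower in OVA+PM10 (median 0.54). Ccl4, a monocyte-attracting chemokine, had 0.49 FPKM in control, 7.54 in PM10 and 3.32 in OVA+PM10. Of the 3 lower in PM10, Ccl11, an eotaxin, had the lowest ratio, at 2.67 FPKM against 50.04 FPKM in control and 95.2 FPKM in OVA+PM10. The others were Nos2 (-1.05) and Icam1 (-1.02).

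**Figure D5:**
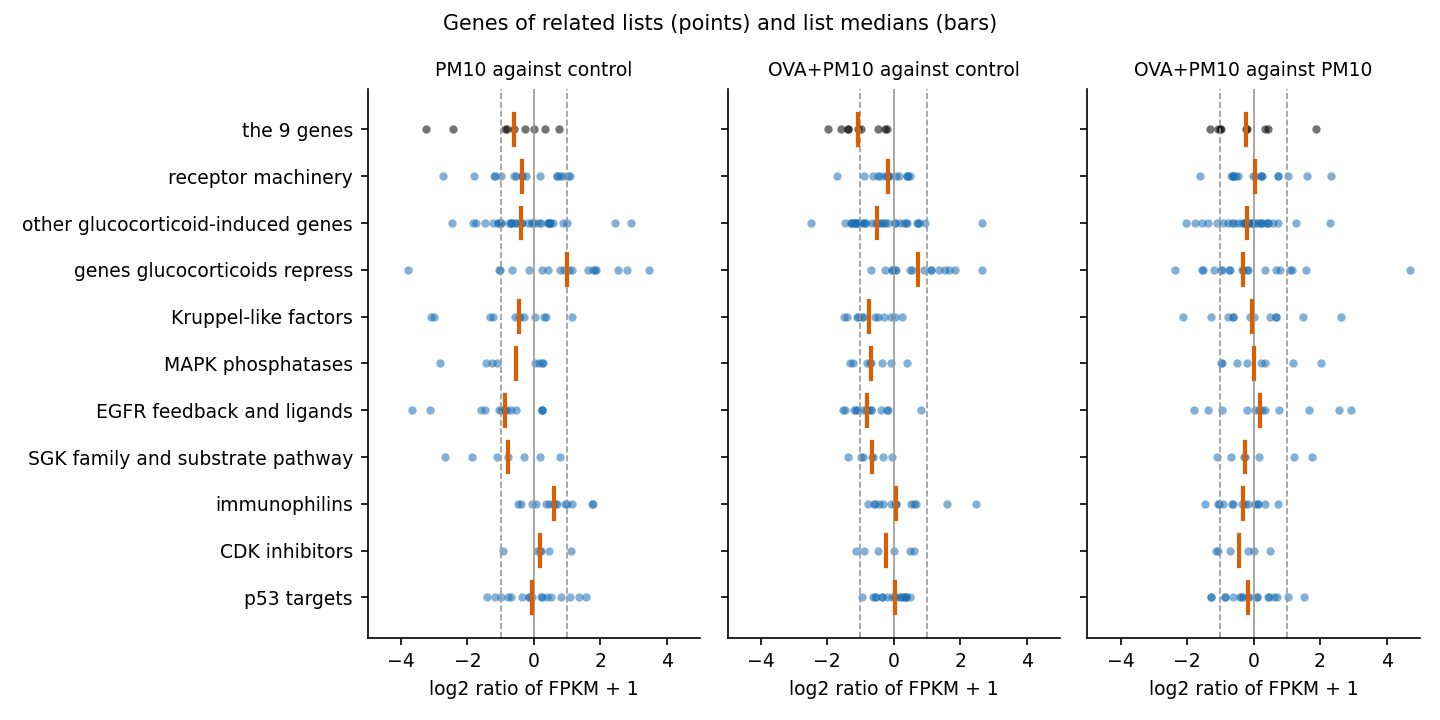
Log2 ratios of FPKM + 1 for the 9 genes and for genes of 10 related lists that reached 1 FPKM in a library compared (points), with list medians (bars) and dashed lines at 2-fold, in the 3 comparisons. Genes that glucocorticoids repress have medians of 0.99 and 0.73 against control, including genes tested only through the exposed library. These medians are -0.10 and 0.26 after scaling to the same sum, with all genes at -1.02 and -0.57. They are 0.34 and 0.54 with the length trend removed. Other glucocorticoid-induced genes have medians of -0.38 and -0.51.

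Among relatives of Klf9, levels differed in both directions. Of 12 tested Krüppel-like factors besides Klf9, 1 was higher and 4 lower in PM10 (median -0.44), and 0 were higher and 4 lower in OVA+PM10 (median -0.74), beside 13.9% and 8.68% of all genes that were lower. Correction for length gave 0 higher and 3 lower in each. Klf3, a transcriptional repressor, had 34.7 FPKM in control, 3.16 in PM10 and 24.7 in OVA+PM10. Klf7, another factor of the family, had 10.9, 0.482 and 3.19 FPKM, the order seen in Klf9. Klf15, which glucocorticoids also induce, had 17.1, 6.28 and 5.80 FPKM. Klf2, a factor of endothelium and of resting T cells, was high in PM10 (149 FPKM) and had 65.9 FPKM in control and 33.8 FPKM in OVA+PM10.

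The phosphatases related to Dusp1 did not share one pattern. Of 8, 4 were lower and 0 higher in PM10 and 2 lower and 0 higher in OVA+PM10, beside 13.9% and 8.68% of all genes that were lower. Dusp6, Dusp10 and Dusp16 had the order of Dusp1, highest in PM10 and lowest in OVA+PM10. Dusp6, which acts on ERK in the cytosol, had 33.6, 40.2 and 20.5 FPKM in control, PM10 and OVA+PM10. Dusp5, which acts on ERK in the nucleus, had 6.05 FPKM in control and 3.06 FPKM in OVA+PM10 but is listed at 0 in PM10. Dusp7 had 43.8 FPKM in control, 15.6 in PM10 and 18.3 in OVA+PM10, so that both were lowest in PM10.

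Around Errfi1, 5 of 14 tested genes of EGFR signalling and its feedback were lower and 0 higher in each exposed library against control (medians -0.88 and -0.80). In PM10 13.9% of all genes were lower and 13.6% higher, and in OVA+PM10 8.68% and 9.95%. After length correction, 0 were higher and 5 lower in PM10, and 1 higher and 4 lower in OVA+PM10. The higher one was Lrig1, at 0.82 before the correction and 1.06 after it. Spry2, a feedback inhibitor of receptor kinases, had 8.38 FPKM in control, 10.2 in PM10 and 2.22 in OVA+PM10, which was the low one as for Errfi1. Spred2, an inhibitor of the same pathway, had 12.8, 0.076 and 5.37 FPKM and Erbb3, an EGFR relative, 13.2, 0.641 and 11.5 FPKM, both low in PM10.

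Of 7 tested genes linked to Sgk1, 0 were higher and 3 lower in PM10 and 0 higher and 1 lower in OVA+PM10, the latter near the 8.68% of all genes (13.9% in PM10). The subunits of the epithelial sodium channel went different ways in PM10: Scnn1a had 100 FPKM in control, 26.6 in PM10 and 63.2 in OVA+PM10, Scnn1g 33.7, 15.2 and 12.2 FPKM, and Scnn1b 24.4, 43.3 and 19.5 FPKM. Foxo3, a transcription factor that SGK1 inactivates, had 9.83, 0.709 and 4.75 FPKM. The 3 other TSC22 family genes stayed within 2-fold in all 3 comparisons.

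Of the 17 tested p53 targets, 3 were higher and 2 lower in PM10 and 0 higher and 0 lower in OVA+PM10, with medians of -0.05 and 0.03. Of all genes, 13.6% were higher and 13.9% lower in PM10, and 9.95% and 8.68% in OVA+PM10. Correction for length left 1 higher and 2 lower in PM10, and 0 higher and 1 lower in OVA+PM10. Bax, a pro-apoptotic gene, had 49.8 FPKM in control, 129 in PM10 and 69.9 in OVA+PM10. Gadd45a, a stress sensor, had 9.09, 29.0 and 11.3 FPKM, also highest in PM10. Without the length trend, neither passed 2-fold in PM10 (0.39 for Bax and 0.71 for Gadd45a). The 2 lower in PM10 were Rrm2b (-1.41, and -1.16 without the length trend) and Sesn2 (-1.17 and -1.12). Of 6 other CDK inhibitors, 1 was higher and 0 lower in PM10 and 0 higher and 1 lower in OVA+PM10, the former being Cdkn2c (1.13) and the latter Cdkn1b (-1.13). With the length trend removed these stood at 0.92 and -0.95, and 1 other gene was lower in each library, Cdkn2a in PM10 (-1.04) and Cdkn2b in OVA+PM10 (-1.34).

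Immunophilins other than Fkbp5 were not low against control, with medians of 0.60 and 0.06, and of -0.60 and -0.57 after scaling to the same sum, where all genes had -1.02 and -0.57. With the length trend removed, the medians were 0.05 and -0.05. Of 14 tested, 3 were higher and 0 lower in PM10 and 2 higher and 0 lower in OVA+PM10, while 0 were higher and 3 lower in OVA+PM10 against PM10. Of all genes, 13.6% were higher and 13.9% lower in PM10, and 9.95% and 8.68% in OVA+PM10. Between the exposed libraries, 11.8% were higher and 9.0% lower. Fkbp4, which competes with FKBP5 in the receptor complex, had 104 FPKM in control, 170 in PM10 and 109 in OVA+PM10. Fkbp11, a secretory pathway member, had 7.39, 27.1 and 45.7 FPKM and was the highest by ratio in OVA+PM10 (2.48).

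For each of the 6 genes past 2-fold in any comparison, the genes with the most similar pair of ratios to control were found among 9994 others with at least 5 FPKM in the highest library. Likeness was the Euclidean distance between the log2 ratios of both exposed libraries, over 3 libraries, and with so few libraries many genes lie close. Nearest to Klf9 were Pde3a, Igfbp5 and Krt80 (distances of 0.161, 0.184 and 0.191), of which Igfbp5 had 89.5, 8.70 and 38.4 FPKM in control, PM10 and OVA+PM10. Nearest to Zbtb16 was Adgrl3 (0.068). Nearest to Tsc22d3 was Ets2 (0.014), at 50.9, 41.5 and 19.3 FPKM, and nearest to Errfi1 was Fabp5 (0.038), followed by Dlc1 and the endothelin receptor gene Ednrb. Nearest to Dusp1 was Rtn2 (0.021), and nearest to Nr3c1 was Atxn3 (0.010).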

How the data were processed

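Total RNA (1.3 µg per library, extracted with Trizol) was made into libraries with a directional kit, per the labels' protocols. The authors deposited FPKM values; the unit was inferred from the values, since no header names it. The approximate depths rest on low values times transcript length in single-transcript genes. The value of 1 read was chosen as the one whose whole multiples fitted these best. At that value, 46.0% to 49.8% of them lay within 0.1 of a whole multiple and the rest did not. Since the same values were used for the choice, this share is no independent check. TopHat and mm10 were used, per the submitters' processing notes; for the counting program, annotation and use of strand the sources used here give nothing. Values of overlapping genes are therefore uncertain.

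Log2 ratios of FPKM + 1 were computed without further scaling (Python 3.11.15, numpy 2.4.6, pandas 2.3.3), and the code was tested on simulated data. No test was possible with 1 library per group. Symbols matched GENCODE M21 for 22148 genes (95.5%). The length trend was a running median over 1001 genes ordered by longest transcript. The 9 genes, 11 related lists (from which the 9 genes were left out) and 13 marker lists were chosen with earlier results of these data known. The rule for naming covered all 9 genes, up to 4 genes per list by the largest ratio, and the 3 nearest genes by likeness for each gene past 2-fold. Not every gene under this rule is printed. Fkbp4, Ergic1, Sftpc, Rora, Dusp6, Dusp10, Dusp16, Cdkn2a, Il6, Tnf, Cxcl2, Cxcl5, Nos2 and Icam1 lie outside that rule and were chosen after their values were seen. Alternatives were pseudocounts of 0.25 and 5, median-ratio and equal-sum scaling (also without muscle, squamous, hemoglobin and immunoglobulin genes), length trend removal, thresholds of 1.5-fold and 4-fold, and no filter or one at 5 FPKM.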

Additional observations from a re-analysis of the deposited data

How the results depend on the processing

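Klf9 and Zbtb16 were lower than in the control library, by at least 2-fold, in both exposed libraries under each alternative pseudocount, scaling and length correction (Klf9 from -4.39 to -2.61 for PM10 and from -2.05 to -1.23 for OVA+PM10; Zbtb16 from -3.42 to -1.45 and from -2.64 to -1.26). For PM10 against control, 7 of the 9 genes were lower after scaling to the same sum, beside 7226 of all 14120 genes tested. Without the genes of other tissues 7 were lower too, beside 7269 of 14096. At 1.5-fold, 5 were lower and 1 higher, beside 7096 of 13693 past that threshold in either direction. For OVA+PM10 against control, 0 were lower at 4-fold. The count of 5 lower stayed the same with the length trend removed, but with Dusp1 in place of Nr3c1. Between the exposed libraries, 4 of the 9 genes were lower with a pseudocount of 0.25, beside 1535 of all 13556. At 1.5-fold, 4 were lower too. Median-ratio scaling gave 3 lower, beside 1244 of 13550, and removal of the length trend 1, beside 874 of 13058. After either scaling to the same sum, 0 were lower (Dusp1 at -0.73 and -0.75, Tsc22d3 at -0.49 and -0.51), beside 321 of 13400 and 327 of 13379. At 4-fold, 0 were lower and 0 higher. Over all genes, scaling to the same sum gave 249 higher and 7226 lower for PM10, 617 and 3459 for OVA+PM10, and 3211 and 321 between the exposed libraries; a pseudocount of 5 gave 1267 and 749, 694 and 524, and 476 and 668. Genes past the threshold numbered 3776, 2585 and 2824 in these comparisons, 7096, 5304 and 6123 at 1.5-fold and 828, 483 and 401 at 4-fold. Under scaling to the same sum, the PM10 ratios of Sgk1 (-0.48), Dusp1 (-0.88) and Cdkn1a (-1.18) fell below 0, with the median gene at -1.02. The ratios of Nr3c1 and Cdkn1a in OVA+PM10 against PM10 rose above 0, to at most 0.36 and 0.34, with the median gene at 0.48. The lower calls of that last comparison thus depend on the scaling, and the cause of the unequal sums was not tested. No paired analysis was possible because each group has 1 library, and leaving out a replicate was not possible either. Depth limits Zbtb16 most, with about 109 reads in the PM10 library.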
